A study of Mus musculus with 9 samples.

Results

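The genes described here lie together at the end of mouse chromosome 2 (mm10), from Tshz2 at 169633013 to Pcmtd2, which ends at 181857461. They were chosen by their RNA level in the Foxd2 mutant clone F7 against control cells, as a block that is higher in F7. The choice names 48 gene symbols, and 42 of them held a mean of 10 or more raw counts over the 9 libraries, out of 14730 genes tested. Since the difference between F7 and control chose them, their fold changes are given as a description and without a test. The question asked of them was how even the difference is, gene by gene and library by library.

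The RNA came from mK4, a cell line made from the kidney mesenchyme of mouse embryos and grown with 10% FBS. Both groups had been through CRISPR/Cas targeting. The 5 control libraries came from cells given a non-targeting guide and carry wild-type Foxd2, and the 4 F7 libraries came from 1 clone with a homozygous frameshift in Foxd2, so what belongs to the clone and what belongs to the mutation cannot be told apart. The labels do not say whether replicates were separate cultures.

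Control libraries held 10526591 to 16032175 counts, F7 replicates 1 and 2 held 14024859 and 11782243, and F7 replicates 3 and 4 held 6041556 and 6590712. Levels are CPM, counts scaled to a common library size with the TMM factor. Foxd2 itself measured 3.73 ± 0.538 CPM (SD, n = 5) in control and 18.3 ± 3.78 CPM (SD, n = 4) in F7, which does not check a frameshift, since such RNA can still be made. Of the kidney mesenchyme markers, Pax2, Eya1, Sall1, Gdnf, Hoxa11 and Vim were present in every library, Six2, Wt1 and Hoxd11 had 0 reads in every library, and Osr1 was at most 0.357 CPM. Epcam and Hbb-bs had 0 reads, Krt8, Krt18, Pecam1, Kdr, Cdh5 and Ptprc stayed at or under 0.475 CPM, and Cdh1 lay between 0.828 and 2.58 CPM, so epithelial, endothelial and blood markers were at or near 0.

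Neighbouring genes of a mammalian chromosome mostly serve unrelated functions. The end of mouse chromosome 2 holds housekeeping genes for transcription, splicing, membrane traffic and protein breakdown beside a cluster of zinc-finger genes. Its human counterpart is a segment often gained in tumours, where ZNF217, BCAS1 and AURKA have been studied. The files hold RNA counts and no measurement of DNA.

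Promoters of 3 genes show how different the sequences are that share this stretch: the gene with the highest log2 fold change, the gene nearest to the median and the gene with the lowest. Each runs from 250 bases before to 50 bases after the gene's start in RefSeq (GRCm38.p6), 5′ to 3′ on the gene's strand, with every CG in capitals. Ppp1r3d is at chr2:178414414-178414713 (minus strand), Cstf1 at chr2:172370753-172371052 (plus strand) and Tshz2 at chr2:169632259-169632558 (plus strand). The Ppp1r3d window also holds the start of Fam217b, at 178414524 on the plus strand.
Ppp1r3d: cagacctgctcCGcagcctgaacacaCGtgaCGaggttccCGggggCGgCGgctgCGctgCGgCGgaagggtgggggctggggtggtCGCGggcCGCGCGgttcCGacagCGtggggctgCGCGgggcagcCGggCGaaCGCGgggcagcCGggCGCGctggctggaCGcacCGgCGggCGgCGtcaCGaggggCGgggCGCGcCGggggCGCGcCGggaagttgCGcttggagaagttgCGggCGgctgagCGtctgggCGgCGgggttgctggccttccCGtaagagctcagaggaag
Cstf1: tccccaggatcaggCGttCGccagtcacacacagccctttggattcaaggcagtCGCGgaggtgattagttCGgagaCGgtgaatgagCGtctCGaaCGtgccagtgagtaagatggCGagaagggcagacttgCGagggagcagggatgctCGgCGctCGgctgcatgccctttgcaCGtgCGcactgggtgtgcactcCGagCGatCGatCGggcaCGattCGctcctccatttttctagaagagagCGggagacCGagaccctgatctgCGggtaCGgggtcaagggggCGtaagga
Tshz2: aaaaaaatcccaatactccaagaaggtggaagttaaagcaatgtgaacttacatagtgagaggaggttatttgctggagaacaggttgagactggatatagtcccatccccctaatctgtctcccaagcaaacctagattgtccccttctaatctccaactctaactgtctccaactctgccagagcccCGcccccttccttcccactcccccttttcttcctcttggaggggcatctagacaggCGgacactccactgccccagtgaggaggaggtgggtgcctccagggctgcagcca
The Ppp1r3d promoter holds 45 CG pairs and is 77.0% G and C, the Cstf1 promoter holds 27 and is 60.3%, and the Tshz2 promoter holds 2 and is 52.0%. RefSeq promoters were matched for 36 of the 42 genes, 48 promoters in all, with a median of 27 CG pairs (range 1 to 49) against 7 over all 32851 promoters of the table. On either strand, GGGCGG, which itself contains a CG, was found in 36 of the 48 promoters and in 35.7% of all. CCAAT was found in 31.2% against 37.4%, and TATAAA in 0 of the 48 against 13.6%. These are matches of letters in a window of fixed length and say nothing of bound factors. The 42 genes passed a count minimum, whereas the 32851 promoters were not limited by RNA level. Whether the contrasts are particular to this stretch, beside other genes with RNA, was not tested.

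Of the 42 genes, 41 had a higher fitted level in F7 and 1, Tshz2, had a lower one, so the label of higher genes holds for 41. The median log2 fold change of the 42 was 0.54 (1.46-fold) against -0.01 over all tested genes. In edgeR's fit of all genes, 37 of the 42 were called higher at an adjusted p under 0.05, beside 17.4% of all tested genes, and 1 was called lower, beside 17.9%. In 32 genes the lowest F7 library lay above the highest control library, which was so for 13.9% of all tested genes. These counts follow from how the genes were chosen and are no evidence of their own.

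Gene by gene, most values lay within a limited range, though not a narrower one than usual by their quartiles. Leaving Tshz2 out, the 41 genes ran from 0.14 (Npepl1) to 1.05 (Ppp1r3d) on the log2 scale, with a median of 0.55, quartiles of 0.41 and 0.76, and an SD of 0.23. Fold changes of 31 genes lay between 1.2 and 1.8, and 2 genes reached 2-fold. The SD over all 14730 tested genes was 0.72, and over the 9328 at or above the 10th percentile of the members' levels it was 0.47. The interquartile range of the 41 was 0.35, against 0.36 for those 9328 genes, so the members' middle values were about as far apart as those of other genes of their level. The median standard error (SE) of a member was 0.09, so the SD between genes was larger than the error of a typical gene.

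**Figure D1:**
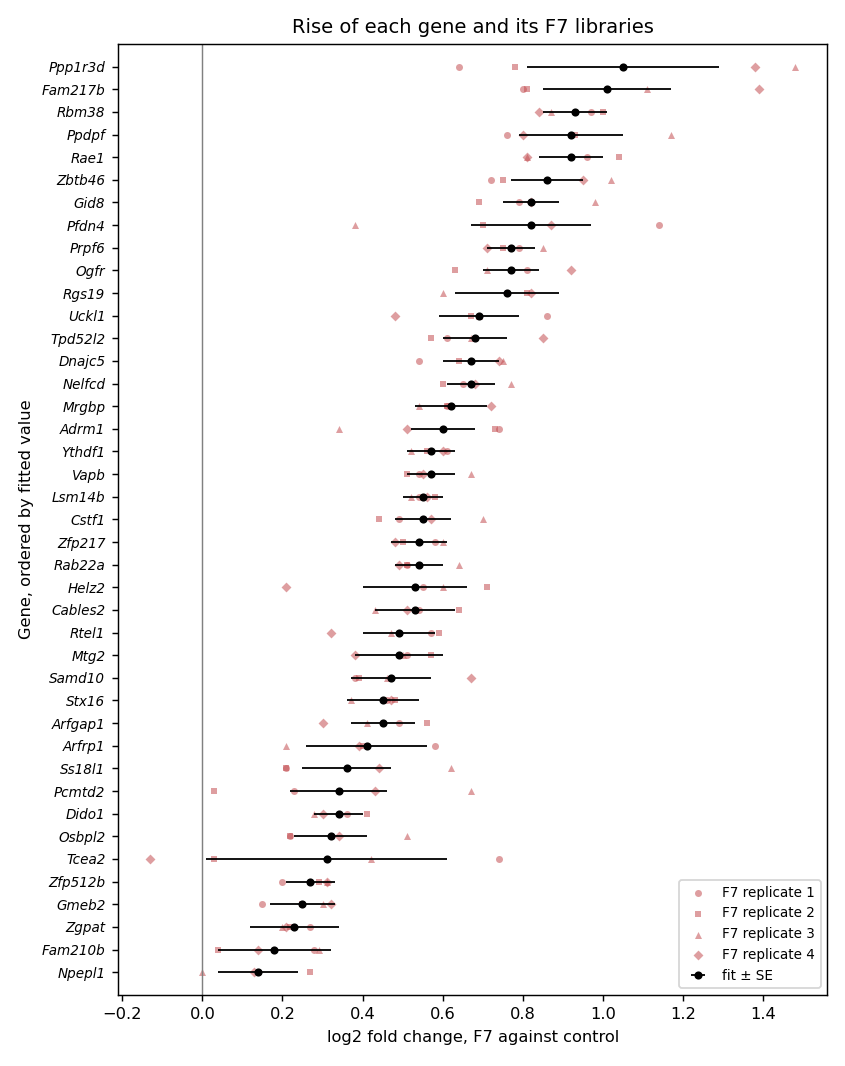
Fitted log2 fold change of each gene with its SE (black) and the log2 ratio of each F7 replicate to the control mean (coloured symbols, n = 4), for the 41 genes other than Tshz2, ordered by the fitted value. The fitted values run without a gap from 0.14 to 1.05, and the symbols of 1 gene mostly stay within 0.5 of each other.

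Transcription and chromatin genes form the largest group, with 12 of 14 listed genes above the count minimum. Their log2 fold changes ran from -5.55 to 0.86 with a median of 0.35. In 7 of the 12 every F7 library lay above every control library, and Tshz2 had no overlap in the other direction. Zbtb46, a BTB zinc-finger factor best known from dendritic cells, was highest at 0.86 (SE 0.09). Nelfcd, a subunit of the factor that pauses RNA polymerase II, was at 0.67 without overlap, and Mrgbp, a subunit of the NuA4 acetyltransferase complex, at 0.62. Helz2, a helicase coactivator, was at 0.53, Ss18l1, a BAF complex subunit, at 0.36, Tcea2, an elongation factor, at 0.31, Zfp512b at 0.27 and Gmeb2, which binds glucocorticoid modulatory elements, at 0.25.

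Zfp217, a zinc-finger repressor, measured 44.2, 38.7, 39.4, 42.3 and 37.2 CPM in control replicates 1 to 5 and 60.4, 57.2, 61.2 and 56.4 CPM in F7 replicates 1 to 4. All F7 libraries lay above all controls, with a log2 fold change of 0.54 (SE 0.07). Dido1, a PHD finger protein and the most abundant of the 42 in CPM, measured 192, 194, 167, 184 and 183 CPM in control and 235, 245, 224 and 227 CPM in F7. Its groups did not overlap either, yet its log2 fold change was only 0.34. Zgpat, a zinc-finger repressor, measured 24.5, 35, 28.7, 29.3 and 23.3 CPM in control and 33.9, 32.8, 32.4 and 32.6 CPM in F7. Control replicate 2 lay above all 4 F7 libraries, and the log2 fold change was 0.23 (SE 0.11). Zgpat overlaps Arfrp1 on the opposite strand, and whether the counting used strand is not given in the sources used here, so reads of the pair may be shared.

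Tshz2, which encodes a teashirt family zinc-finger transcription factor, went the other way. It lies at 169633013 to 170071816, first in the stretch, and its raw counts were 32, 32, 13, 20 and 17 in the control libraries and 0, 0, 0 and 1 in the F7 libraries. Every control library thus held reads and 3 of 4 F7 libraries held none, with no overlap. The 114 control reads against 1 F7 read give a ratio of control to F7, per sequenced read, of 66.6 with a 95% exact interval of 11.7 to 2650, which covers counting error only. The fitted log2 fold change of -5.55 depends on the prior count and is no measure of size. At a mean of 12.8 counts, Tshz2 passed the count minimum only through the control libraries. Its neighbour Zfp217 starts at 170108643 and had all F7 libraries above control.

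All 6 RNA processing genes had no overlap between groups, with log2 fold changes of 0.55 to 0.93 and a median of 0.67. Rbm38, an RNA-binding protein and p53 target, measured 22.1, 23.3, 25.2, 20.1 and 22.3 CPM in control and 44.2, 45.3, 41.3 and 40.5 CPM in F7. The lowest F7 value was well above the highest control value, with a log2 fold change of 0.93 (SE 0.08). Lsm14b, a component of cytoplasmic messenger ribonucleoprotein particles, measured 84.2, 87.3, 83.8, 81.3 and 89.0 CPM in control and 124, 127, 122 and 126 CPM in F7. Its F7 libraries were the closest to each other of all 41 genes, spanning 0.06 on the log2 scale, around a log2 fold change of 0.55. Cstf1, a subunit of the cleavage stimulation factor of messenger RNA 3′ ends, measured 40.3, 43.6, 44.8, 39.8 and 46.8 CPM in control and 60.6, 58.3, 69.9 and 63.8 CPM in F7. It stood at 0.55 as well, again without overlap. Rae1, which acts in messenger RNA export, was at 0.92, Prpf6, a bridging protein of the tri-snRNP, at 0.77 and Ythdf1, a reader of methylated adenosine, at 0.57.

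Membrane traffic and lipid exchange genes, 8 of 8 above the minimum, ran from 0.32 to 0.68 with a median of 0.49, and 6 had no overlap. Rab22a, a GTPase of early endosomes, measured 97.1, 101, 96.3, 90.1 and 93.9 CPM in control and 136, 136, 149 and 135 CPM in F7, at a log2 fold change of 0.54. Dnajc5, the cysteine string protein of exocytosis, measured 114, 118, 120, 103 and 111 CPM in control and 164, 177, 190 and 189 CPM in F7, at 0.67. In both genes every F7 library lay above every control library. Tpd52l2 was at 0.68, Vapb, an endoplasmic reticulum tether, at 0.57, Stx16, a SNARE of the trans-Golgi network, and Arfgap1, a GTPase-activating protein of the Golgi, at 0.45 each, Arfrp1, a GTPase of the trans-Golgi, at 0.41 and Osbpl2, a sterol-binding protein, at 0.32. In Arfrp1 and Osbpl2 the groups overlapped.

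The 3 genes of protein folding and breakdown had no overlap: Pfdn4, a prefoldin subunit, and Gid8, of the CTLH ubiquitin ligase, were both at 0.82, and Adrm1, a ubiquitin receptor of the proteasome, at 0.60. The 2 mitochondrial genes parted. Mtg2, a GTPase of mitochondrial ribosome assembly, was at 0.49 without overlap, whereas Fam210b measured 13.2, 13.4, 13.6, 11.2 and 8.43 CPM in control and 14.6, 12.3, 14.6 and 13.2 CPM in F7. Fam210b thus overlapped in F7 replicates 2 and 4, at a log2 fold change of 0.18 (SE 0.14). Rtel1, a helicase of telomere maintenance, was at 0.49 and Uckl1, a uridine-cytidine kinase-like protein, at 0.69, both without overlap.

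Of the signalling genes, 4 of 5 passed the minimum and none overlapped. Ppp1r3d, a subunit that targets protein phosphatase 1 to glycogen, measured 2.89, 2.67, 2.07, 2.23 and 1.60 CPM in control and 3.58, 3.94, 6.39 and 5.96 CPM in F7. It had the highest log2 fold change of the 42, 1.05 (SE 0.24), and its F7 replicates 3 and 4 were higher than replicates 1 and 2. Ogfr, the opioid growth factor receptor, was at 0.77, Rgs19, which accelerates GTP hydrolysis by inhibitory G proteins, at 0.76 and Cables2 at 0.53. Fam217b, a gene of less defined function, starts at 178414524, beside Ppp1r3d, which ends at 178414472 on the opposite strand. It measured 8.99, 8.0, 6.97, 5.76 and 6.40 CPM in control and 12.6, 12.7, 15.6 and 19 CPM in F7, again with F7 replicates 3 and 4 on top and no overlap. This head-to-head pair holds the 2 highest values of the 42, the log2 fold change of Fam217b being 1.01 (SE 0.16).

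Among the other genes of less defined function, Ppdpf, known from pancreas development in zebrafish, measured 11, 9.70, 15, 11.4 and 13.3 CPM in control and 20.5, 23.1, 27.2 and 21.1 CPM in F7. All F7 values lay above all control values, at a log2 fold change of 0.92 (SE 0.13). Npepl1, an aminopeptidase-like protein, measured 21.2, 20, 21.7, 19.5 and 16.1 CPM in control and 21.7, 23.8, 19.7 and 21.6 CPM in F7. Its groups overlapped, and 0.14 (SE 0.10) was the smallest positive value. Samd10 was at 0.47 without overlap and Pcmtd2, which has an isoaspartate methyltransferase domain, at 0.34 with overlap.

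The other 6 listed symbols held too few reads. Over all libraries of a group, Bcas1 had 2 control and 4 F7 reads, Tcfl5 2 and 1, Slco4a1 0 and 8, Slc17a9 8 and 10, Lime1 31 and 34, and Tfap2c none. Slco4a1 and Slc17a9, the only listed transporters, are both in this group. Tcea2 and Tshz2, at means of 12.9 and 12.8 counts, were the genes just above the minimum, and Lime1, at 7.22, was just under it.

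Library by library, the 41 listed genes other than Tshz2 were higher as a group in every F7 library. In F7 replicates 1 to 4 the median log2 ratio of the 41 genes to the control mean was 0.57, 0.57, 0.60 and 0.51. In control replicates 1 to 5 it was -0.00, 0.05, 0.04, -0.04 and -0.08, so medians lay close together within each group. The distance between the groups follows from how the genes were chosen and is no evidence of its own. Of the 41 genes, 41, 41, 40 and 40 were above the control mean in F7 replicates 1 to 4, and 38, 35, 38 and 35 were above the highest control library. These counts follow from the choice as well, and the shares over all tested genes were not computed.

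**Figure D2:**
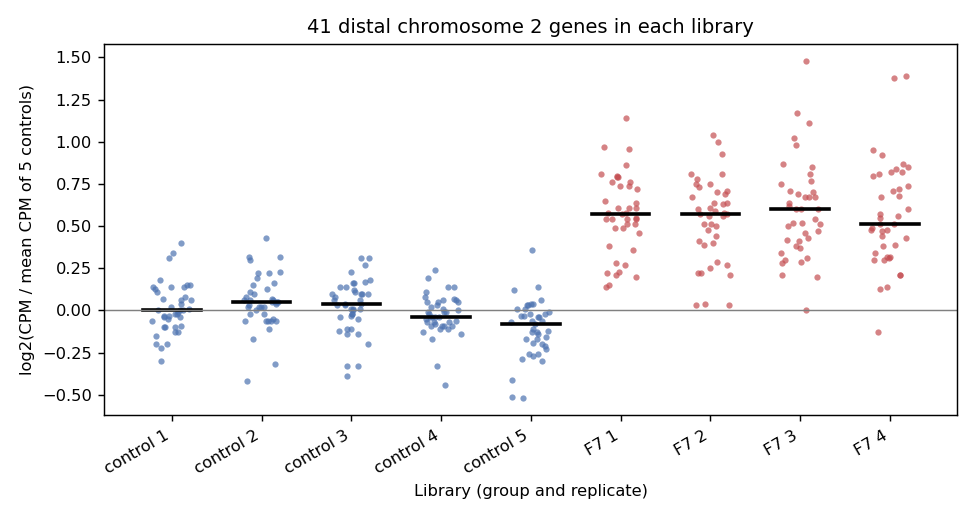
Log2 ratio of CPM to the mean of the 5 controls for 41 distal chromosome 2 genes (points, Tshz2 left out) in each library, with the median as a black bar. Medians lie between -0.08 and 0.05 in the 5 control libraries and between 0.51 and 0.60 in the 4 F7 libraries.

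The share of all counts taken by the 42 genes was 0.181 ± 0.00816% (SD, n = 5) in control and 0.259 ± 0.00303% (SD, n = 4) in F7, a ratio of 1.43. For 39 of the 41 genes all 4 F7 libraries were above the control mean. The log2 ratios of 36 genes spanned under 0.5 over the F7 libraries, and the widest span was 0.87, for Tcea2, which held about 1 CPM. For these counts of 39 and 36 genes the share over all tested genes was not computed. The median SD of a gene was 0.11 between F7 libraries and 0.14 between control libraries, against the SD of 0.23 between genes.

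F7 replicates 3 and 4 carry another spelling of the cell line in the raw table's headers and were shallower, so the F7 libraries were compared with each other, a contrast that the choice of genes did not use. Between replicates 3 and 4 and replicates 1 and 2, edgeR called 0 of the 42 genes, beside 0.0679% of all tested genes, and DESeq2 and limma voom called 0. At an unadjusted p under 0.05 the 3 tools counted 5, 3 and 6 genes of the 42, against 9.13%, 7.27% and 8.71% of all tested genes. Differences of the 41 genes other than Tshz2 ran from -0.31 (Adrm1) to 0.71 (Ppp1r3d) on the log2 scale, with a median of 0.02 and a median SE of 0.12. Upward and downward differences were about even, with 21 genes higher and 20 lower in replicates 3 and 4.

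The size of the difference followed level, position and length only weakly. Over the 41 genes, Spearman's rho of the log2 fold change was -0.10 with control CPM, -0.14 with position along the chromosome and -0.33 with exonic length, which over 13833 genes with a position was -0.22. These correlations are across genes that share their libraries and are given as a description. Control levels spanned 1.01 CPM (Tcea2) to 184 CPM (Dido1), and per kilobase of exon 0.372 (Tcea2) to 29.4 CPM (Lsm14b). The genes lie on both strands, 29 on plus and 13 on minus, over 12.2 Mb. Of the 42, 14 overlap another gene, 12 of them on the opposite strand, where reads cannot be told apart if strand was not used. Uckl1 and Zfp512b, and Zgpat and Lime1, overlap on the same strand, where strand would not part the reads. Nelfcd, which ends at 174427502, overlaps only the edge of Ctsz, which starts at 174427493. Ctsz is not listed, and its log2 fold change was 1.64. Prpf6 overlaps Samd10 and Zfp512b.

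Genes of the same stretch that were not listed were examined beside the members. Of 69 such tested genes, 63 had a higher fitted level in F7, with a median log2 fold change of 0.61. All 39 protein-coding ones were positive, with a median of 0.79, and 27 of these carry symbols made of a clone number. The highest value was that of Cdh26, a cadherin, at 2.67 with an SE of 0.44 (0.209 ± 0.132 to 1.47 ± 0.376 CPM). Next came Pmepa1, a membrane protein that dampens TGF-beta signalling, at 2.49 (12.3 ± 1.89 to 69.3 ± 6.87 CPM). Gm14401 was at 2.04 with an SE of 0.35 (0.428 ± 0.236 to 1.81 ± 0.316 CPM). The lowest were Gm14429 at -0.51 (SE 0.46), Gm14274 at -0.25 (SE 0.28) and Nespas, an antisense RNA of the Gnas locus, at -0.22 (SE 0.24). Their control levels were 0.84, 2.42 and 3.47 CPM. Of the 69, 0 were called lower, beside 17.9% of all tested genes. The highest listed gene, at 1.05, thus lay far below Cdh26 and Pmepa1. The SD of the 69 was 0.54, against 0.23 for the 41 listed genes without Tshz2 and 0.97 for the 42 with it. Interquartile ranges were closer, at 0.45 for the 69 and 0.35 for the 41. The median SE was 0.17 for the 69 and 0.09 for the 41, and whether the listed genes were more even was not tested.

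The higher values also began before the listed stretch. Inside it, after Tshz2, came Zfp217 at 0.54, Gm14270 at 0.31, Gm14269 at 0.23 and Pfdn4 at 0.82. Before it, going outwards, Zfp64 was at 0.67 (28.3 ± 0.800 to 45.1 ± 1.61 CPM), Nfatc2 at 0.67 with an SE of 0.42, Mocs3 at 0.69, Dpm1 at -0.35 with an SE of 0.28 and Adnp at 0.52. In bins of 2 Mb the median log2 fold change was 0.02 (33 genes) from 164 Mb and -0.07 (23 genes) from 166 Mb. It was then 0.33 (8 genes) from 168 Mb, 0.42 (4 genes) from 170 Mb, 0.54 (14 genes) from 172 Mb, 0.63 (24 genes) from 174 Mb, 0.66 (25 genes) from 176 Mb, 0.59 (7 genes) from 178 Mb and 0.53 (36 genes) from 180 Mb. The 1050 tested genes of chromosome 2 before the stretch had a median of 0.01, with 51.5% positive.

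**Figure D3:**
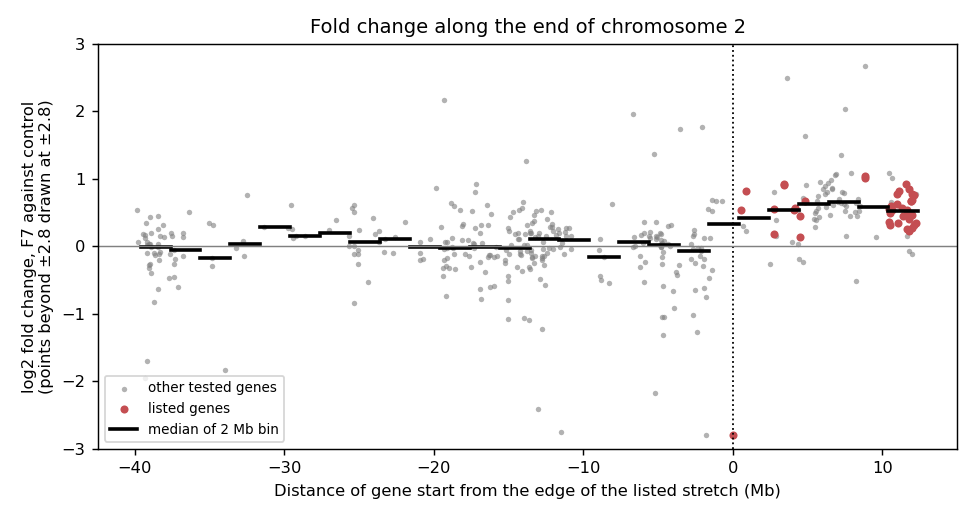
Log2 fold change of tested genes along the end of chromosome 2 by distance of the gene start from the edge of the listed stretch (dotted line), with listed genes coloured, other genes grey and the median of each 2 Mb bin as a black bar. Bin medians lie between -0.17 and 0.28 from 130 to 168 Mb and between 0.33 and 0.66 from there to the end, and Tshz2 is drawn at the lower limit of the axis.

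To place the stretch on the scale of the genome, the tested genes with a position were cut along each chromosome into 339 runs of 40 neighbours. The stretch was chosen by this same fold change, so its place in the order restates the choice and is no test. The 3 runs with the highest median all lie at the end of chromosome 2, at 0.67 with 39 of 40 genes positive, 0.54 with 38 and 0.47 with 32. They are the only runs with a median of 0.4 or more, and the next highest run, on chromosome X, had 0.22. The run at 0.67, from 175129493 to 178078476, lies between Nelfcd and Ppp1r3d and holds no listed gene. Most of its genes carry symbols made of a clone number, and whether they share reads with each other was not tested. In the other direction 7 runs, on chromosomes 8 and 19, had a median of -0.4 or less, the lowest at -0.55.

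**Figure D4:**
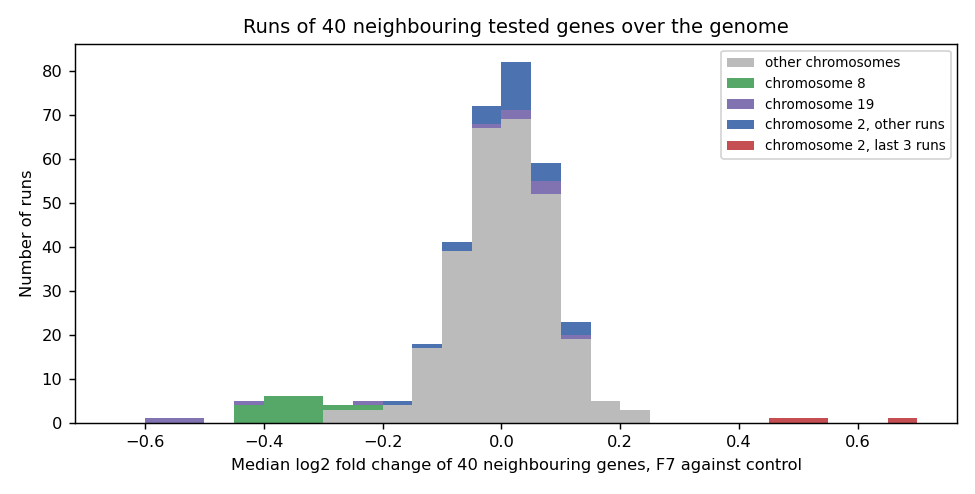
Histogram of the median log2 fold change of 339 runs of 40 neighbouring tested genes over the genome, with the last 3 runs of chromosome 2, its other runs and those of chromosomes 8 and 19 coloured. The chromosome 2 runs stand at 0.47, 0.54 and 0.67, to the right of all others, as follows from a stretch chosen by the same fold change.

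Many of the genes encode subunits of complexes whose other subunits lie elsewhere in the genome. The values of these partners did not choose the members, but the partner and paralog lists were drawn up with earlier results of these data known, so their tests are not independent evidence. Of 81 tested partners of 10 genes, 27 rose, 10 fell and 44 were not called by edgeR at an adjusted p under 0.05, with a median log2 fold change of 0.03. Over all tested genes 17.4% were called higher and 17.9% lower, with a median of -0.01. Partners of Adrm1, the subunits of the 19S regulatory particle of the proteasome, rose in 15 of 18 cases with a median of 0.28, below the 0.60 of Adrm1. Psmd8, of the lid of that particle, rose from 97.2 ± 12.7 (SD, n = 5) to 144 ± 11.1 CPM (SD, n = 4), by 0.57 (SE 0.09, adjusted p = 0.000349 by edgeR). Its F7 libraries all lay above control.

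Partners of the other genes gave fewer upward calls for their number. Of the 9 CTLH ligase partners of Gid8, 0 rose and 4 fell, with a median of -0.20 against 0.82 for Gid8. Ranbp10, 1 of these 4, was at -0.41 and lies at 105768308 of chromosome 8, within a run with a median of -0.41. Mkln1 fell from 75.7 ± 6.33 to 56.1 ± 3.68 CPM, by -0.44 (SE 0.08, adjusted p = 0.00067 by edgeR). The 3 partners of Nelfcd, the 3 of Cstf1 and Nup98, the partner of Rae1, were not called, with medians of 0.08, -0.02 and -0.05. Of 13 spliceosomal partners of Prpf6 5 rose and none fell, and of 5 prefoldin partners of Pfdn4 2 rose. Of the 17 NuA4 partners of Mrgbp 4 rose and 4 fell, and Ruvbl1, an ATPase of that complex, rose from 11.6 ± 1.47 to 16.8 ± 1.87 CPM, by 0.55 (SE 0.12, adjusted p = 0.00275 by edgeR). Of 8 BAF partners of Ss18l1 1 rose and 1 fell. Vti1a, 1 of the 4 partners of Stx16, fell from 37.4 ± 1.75 to 24.6 ± 1.11 CPM. Its log2 fold change was -0.60 (SE 0.07, adjusted p = 2.48e-05 by edgeR). Vti1a lies at 55316295 of chromosome 19, within the run with a median of -0.55.

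The count of partners that rose rests on the libraries used. It was 11 without F7 replicate 1, 16 without control replicate 1, control replicate 2 or F7 replicate 2, and 2 when F7 replicates 1 and 2 were both left out.

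**Figure D5:**
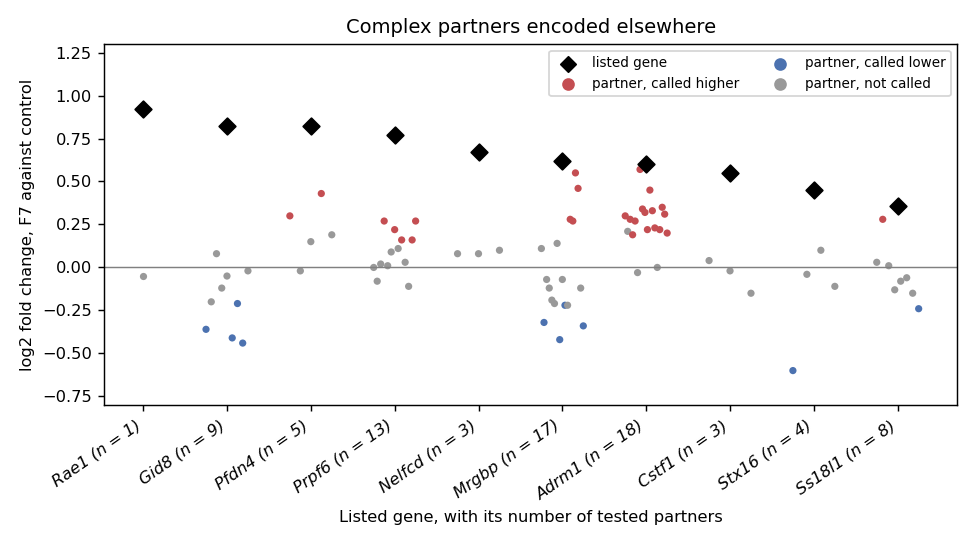
Log2 fold change of each listed gene that belongs to a complex (diamonds) and of its tested partners encoded elsewhere (circles, coloured by the call), with the number of partners in the axis labels. All 10 diamonds lie above 0, between 0.36 and 0.92, whereas partners lie on both sides of 0. Of the Adrm1 partners 15 of 18 rose, the Pfdn4 partners have a median of 0.19 and the Gid8 partners one of -0.20.

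Close relatives (paralogs) encoded outside the stretch were counted in the same fit. Of 22 tested, 3 rose, 6 fell and 13 were not called, with a median of -0.06, beside the 17.4% of all tested genes called higher and 17.9% called lower. Ogfrl1, the relative of Ogfr, rose from 2.88 ± 0.429 to 11.6 ± 1.2 CPM, by 2.02 (SE 0.14, adjusted p = 2.95e-07 by edgeR), and Uck2, a uridine-cytidine kinase, from 89.0 ± 11.2 to 118 ± 5.25 CPM, by 0.40 (SE 0.08, adjusted p = 0.00261 by edgeR). Tfap2a, the relative of the unread Tfap2c, fell from 106 ± 7.99 to 45.2 ± 2.51 CPM, by -1.24 (SE 0.07, adjusted p = 4.96e-08 by edgeR), and Cables1 from 32.8 ± 2.22 to 23.5 ± 4.37 CPM, by -0.51 (SE 0.11, adjusted p = 0.00343 by edgeR). Tshz1 and Tshz3, the relatives of Tshz2, were also called lower, at -0.42 and -0.31.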

How the data were processed

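RNA of 5 control and 4 F7 libraries was sequenced. The authors deposited raw counts per gene symbol, the input of every test. Per the submitters' processing notes, the build was mm10, and the tools were featureCounts, R 3.4.3 and DESeq2 1.18.1. Aligner, annotation and strand setting: not given in the sources used here. Besides the counts, the authors deposited a normalized signal (counts over a size factor, used only as a check of the raw table) and a comparison with log2 fold changes, a test score and p-values, quoted only where named. Of the F7 columns in each per-library table, 1 matched no sample and was not used.

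Counts were fitted with edgeR 4.0.16 (quasi-likelihood, robust, TMM, filterByExpr at a minimum count of 10, group only) in R 4.3.3, and p-values were adjusted over 14730 genes by Benjamini-Hochberg. SE is the log2 fold change over the square root of F. The spread behind the p-values is that between these libraries and may be technical. Zfp512b was found under another symbol through RefSeq. Positions came from GENCODE, matched by symbol for 93.9% of tested genes. Per-library values are printed for the 4 highest, 4 lowest, 4 nearest to the median and 3 most abundant members, and partners and paralogs are named by the 2 largest called changes in each direction. Members, partner lists and paralog lists were chosen with earlier results of these data known. DESeq2 1.42.0, limma 3.58.1 voom, other scalings and filters, a replicate block and left-out libraries were alternatives. The fit was tested on simulated data.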

Additional observations from a re-analysis of the deposited data

Results flagged for a closer look

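The control and F7 libraries of each of the 42 genes, and of the genes' summed share of counts, were examined for a library that stands apart from the rest. Of 86 groups, 3 held one, where chance alone gives about 1 in 20. Tshz2 stood at 0.153 CPM in F7 replicate 4, which is 1 read, with the other F7 libraries at 0. Rab22a stood at 149 CPM in F7 replicate 3, where the next was 136. Samd10 stood at 13.1 CPM in control replicate 3, where the next was 11.6.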

How the results depend on the processing

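Median log2 fold change of the 42 genes stayed between 0.53 and 0.58 and the number called higher between 31 and 38 under every alternative run. Members without overlap are counted here only where every F7 library lay above every control library. With RLE, upper-quartile and TMM factors without chromosomes 2, 8 and 19, 41 of the 42 stayed positive. Over the named members, 276 of 280 values kept within their spread and 0 reversed; the 4 that moved were all of Tshz2, between -7.49 and -4.26. Leaving out 1 library at a time gave 33 to 38 members called, medians of 0.53 to 0.56, 32 to 37 members without overlap and 0 to 0 called within F7; all called genes numbered 3543 (without F7 replicate 1) to 5872 (without control replicate 3), against 5196, partners higher 11 to 27 and lower 7 to 15, paralogs higher 2 to 3 and lower 5 to 7. The SD over the 42 genes, 0.97, was set by Tshz2. It was 0.23 without that gene (an alternative chosen after seeing the data), 0.22 at a mean of 50 counts, 0.82 with voom, 1.26 with F7 replicates 1 and 2 alone, 0.80 with replicates 3 and 4 alone, 0.91 in the authors' deposited table and 0.90 to 1.25 when leaving out 1 library. At an adjusted p under 0.01, 2894 genes were called, with 9 partners higher, 6 lower and 3 paralogs lower. F7 replicates 1 and 2 alone gave 6 partners and 3 paralogs lower. Replicates 3 and 4 alone gave 2160 genes, 2 partners higher, 3 lower and 1 paralog lower, with fewer and shallower libraries. Samples share replicate numbers across groups. Same-numbered deviations of replicates 1 to 4 correlated at -0.0512, 0.0658, 0.208 and -0.0535. The highest correlations with another number were 0.161, 0.0222, 0.0972 and 0.215. The same number was thus the closest for replicates 2 and 3 but not for 1 and 4, which does not settle whether numbers pair samples. A replicate block gave 5149 genes and 34 members called, a median of 0.54, an SD of 0.99 and 32 without overlap. Depth limits Tshz2, Tcea2 and the 6 genes under the minimum.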

Other observations

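Pseudogenes of the same stretch had smaller differences than its protein-coding genes, which was not tested. The 16 tested processed pseudogenes there had a median log2 fold change of 0.30, where the 39 unlisted protein-coding genes had 0.79. Processed pseudogenes anywhere in the genome, 1598 tested, had a median of 0.26, whereas all 10995 tested protein-coding genes had -0.02.

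Other known genes of the stretch outside the list were also higher in F7 by description. Ctsz, the lysosomal protease cathepsin Z, was at 1.64 (28.3 ± 2.25 to 88.7 ± 9.35 CPM). Psma7, a 20S proteasome subunit, was at 1.08, Atp5e, a subunit of the mitochondrial ATP synthase, at 0.90, Aurka, a mitotic kinase, at 0.80, and Gnas, the stimulatory G protein alpha subunit, at 0.72 (36.6 ± 2.46 to 60.4 ± 1.26 CPM). Gcnt7, a glycosyltransferase-like gene of 1.66 ± 0.752 CPM in control, was at 0.16 with overlapping groups.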
